A study of Mus musculus with 2 samples.

Results

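The genes described here encode 10 interleukin receptor chains other than the receptor for interleukin-4 (IL-4): *Il6ra*, *Il6st*, *Il10ra*, *Il10rb*, *Il17ra*, *Il21r*, *Il15ra*, *Il1rap*, *Il1r1* and *Il18rap*. They were picked by symbol, and every called nascent transcript that carried 1 of these symbols as its annotated gene name was taken from both libraries. Of the 11054 genes with a named transcript in at least 1 library, 8 were among these 10, and 6 of them had a named transcript in both. The other two, *Il1r1* and *Il18rap*, had none in either library. The members carried 96 of the 43122 transcripts in the control library and 101 of the 51365 in the IL-4 library.

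The assay was global run-on sequencing (GRO-seq), in which polymerases already engaged on DNA in isolated nuclei add a brominated nucleotide to their transcripts, so that RNA under synthesis can be captured. The cells were wild-type mouse bone marrow-derived macrophages (BMDMs) from animals aged 8 to 12 weeks, grown for 6 days in L929 supernatant, a fibroblast-conditioned medium that supplies M-CSF, the growth factor for macrophages. The control group received no IL-4, and the treated group received 20 ng/ml IL-4 for 1 hr, so L929 supernatant was common to both. Run-on reactions were made in duplicate and pooled, which left 1 library per condition, and the labels do not say how many animals contributed. No value below has a replicate, so no test was made and no p-value is given.

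Interleukin receptors are built from a chain that binds the cytokine and, in most cases, a second chain that is needed for signalling and is often shared between cytokines. *Il6ra* encodes the IL-6-binding chain, and *Il6st* encodes gp130, the signalling chain of the whole IL-6 family. IL-10 signals through *Il10ra* and *Il10rb*, a pathway that restrains inflammatory gene expression in macrophages, and *Il10rb* is also used by IL-22 and interferon-lambda. *Il17ra* is the common chain of the IL-17 receptors, while *Il21r* and *Il15ra* bind IL-21 and IL-15, whose signalling also needs the common gamma chain. *Il1r1*, *Il1rap* and *Il18rap* belong to the IL-1 receptor family, which signals through MyD88 and IRAK kinases.

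Promoter sequence (RefSeq, build GRCm38.p6, the same assembly as mm10) was matched by symbol for 7 of the 10 genes, in 9 entries. *Il10ra*, *Il10rb* and *Il17ra* had no entry. A set of 4 is shown because these genes span the range seen in the run-on data: *Il6st* had promoter-near transcripts in both libraries, *Il1rap* in the IL-4 library only, *Il21r* had body transcripts but none in the promoter window, and *Il18rap* had no transcript at all. Each line gives the 250 bases before the annotated start, 5′ to 3′. In the lines for *Il6st*, *Il1rap* and *Il21r* the capitals mark CG dinucleotides, and in the line for *Il18rap* they mark the 2 motif matches described below.
Il6st, chr13:112463820-112464069, plus strand: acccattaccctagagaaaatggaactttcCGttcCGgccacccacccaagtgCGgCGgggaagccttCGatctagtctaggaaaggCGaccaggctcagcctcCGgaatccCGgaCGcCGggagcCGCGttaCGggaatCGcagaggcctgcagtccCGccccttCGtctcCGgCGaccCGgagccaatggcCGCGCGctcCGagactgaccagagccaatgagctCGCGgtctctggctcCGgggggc
Il1rap, chr16:26581455-26581704, plus strand: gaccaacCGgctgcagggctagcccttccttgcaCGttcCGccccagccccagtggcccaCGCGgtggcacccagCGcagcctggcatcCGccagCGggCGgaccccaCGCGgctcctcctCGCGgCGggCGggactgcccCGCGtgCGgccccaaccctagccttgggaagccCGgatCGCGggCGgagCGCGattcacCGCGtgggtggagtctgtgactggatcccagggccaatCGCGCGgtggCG
Il21r, chr7:125603179-125603428, plus strand: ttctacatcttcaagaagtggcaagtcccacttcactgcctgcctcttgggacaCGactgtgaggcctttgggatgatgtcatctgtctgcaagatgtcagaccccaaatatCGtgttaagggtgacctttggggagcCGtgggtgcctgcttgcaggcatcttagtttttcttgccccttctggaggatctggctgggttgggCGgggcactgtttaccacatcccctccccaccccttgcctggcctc
Il18rap, chr1:40515112-40515361, plus strand: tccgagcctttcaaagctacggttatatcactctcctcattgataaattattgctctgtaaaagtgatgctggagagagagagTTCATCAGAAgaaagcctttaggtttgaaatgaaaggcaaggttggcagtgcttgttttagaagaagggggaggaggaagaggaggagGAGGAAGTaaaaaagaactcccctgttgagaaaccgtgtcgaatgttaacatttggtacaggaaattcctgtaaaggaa
These 250 bases held 26 CG dinucleotides in *Il6st*, 30 in *Il1rap*, 4 in *Il21r* and 4 in *Il18rap*. Over the full 300-base window, which runs 50 bases into the gene, *Il6st* and *Il1rap* held 33 CG dinucleotides each and *Il6ra* held 25, against a median of 7 over 32851 promoter windows. The windows of *Il21r* (7) and *Il18rap* (4) were at and below that median, and the paired entries of *Il15ra* (6 and 15) and *Il1r1* (5 and 14) lay on either side of it. In the control library the windows of *Il6st*, *Il6ra* and 1 of the 2 *Il15ra* entries overlapped a called transcript of the same strand, and in the IL-4 library those of *Il6st*, *Il6ra* and *Il1rap* did.

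The windows were searched on both strands for TTCNNNNGAA, a spacing of the STAT motif bound by STAT6, for TTCNNNGAA, the spacing bound by most other STAT proteins, and for GAGGAAGT, a core of the motif of PU.1, a macrophage lineage factor. Over all windows these were present in 6.95%, 8.3% and 3.2%, respectively. Of the 9 entries for receptor genes, the *Il18rap* entry alone held any of them, with TTCNNNNGAA from -167 to -158 and GAGGAAGT from -79 to -72 relative to the start. A match is a description of the letters in this window and not evidence of binding.

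The only measurement is a score for each called transcript, deposited to 1 decimal. A gene's value was the top score found on any transcript bearing its name, and its change is given as log2 of the IL-4 value over the control value, minus the median of that quantity over all genes, -0.38. Each ratio has a rounding range, the span of ratios allowed by a score known only to within 0.05. This range is not a replicate error, and it does not cover transcripts that were not called. Since names are given by the nearest promoter and can fall on transcripts of a neighbouring gene, the members were also measured over their own gene bodies, with only transcripts on the gene's own strand. The level per length is the sum of score times overlapped length divided by the length of the gene body, and it is the scale used where the members are ordered by level. Counts over the other gene lists used the highest named score.

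The libraries differed as a whole, which bears on every value below. Control transcripts had a median length of 227 bp and a median score of 0.3, and IL-4 transcripts 312 bp and 0.2. Across the 8183 genes with own-strand body transcripts in both libraries, covered length after IL-4 was 1.37 times that in control at the median (quartiles 0.938 and 2.18). Where transcripts of both libraries overlapped in a gene body, the IL-4 score was 0.8 times the control score at the median. Sequencing depth is unknown, and whether the score was scaled to depth is not given in the sources used here. With 1 library each, the treatment and the library cannot be told apart. All 8 macrophage markers had own-strand body transcripts in both libraries (summed named values 17.4 in control and 16.4 after IL-4, with *Adgre1* and *Spi1* carrying no named transcript), whereas none of the markers of T cells, B cells, NK cells, mast cells or fibroblasts had any in their bodies. Transcripts named for 4 of these markers, *Cd3d*, *Cd8a*, *Cd79a* and *Klrb1c*, lay outside those bodies, the highest being those of *Klrb1c* at 1.6 (control) and 2.3 (IL-4). Of 5 neutrophil markers, 2 had body transcripts in each library, with summed named values of 1.1 and 0.5, and their part in the results was not tested. *Socs1*, an early IL-4 target that encodes a feedback inhibitor of cytokine signalling, scored 0.3 in the control library and 2.5 in the IL-4 library. *Cish* and *Egr2* had body transcripts after IL-4 only, and *Arg1* had a named transcript outside its body after IL-4 only. In bulk cells such as these, fewer cells making a transcript and less transcript per cell cannot be told apart.

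Of the 6 receptor genes with a named value in both libraries, none was at least 2-fold higher after IL-4 and *Il17ra* alone was at least 2-fold lower. Among the 8879 genes with a value in both libraries, 8.06% were at least 2-fold higher and 8.62% at least 2-fold lower. With the requirement that the whole rounding range lie past 2-fold, no receptor gene was called in either direction, against 3.67% of genes higher and 3.85% lower. The centred log2 ratios of the 6 genes had a median of -0.07 and ran from -1.21 to 0.57, where the quartiles of all genes were -0.51 and 0.38. *Il1rap* had a named transcript in the IL-4 library only, as did 11.1% of the 11054 genes, and *Il15ra* in the control library only, as did 8.58%.

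**Figure D1:**
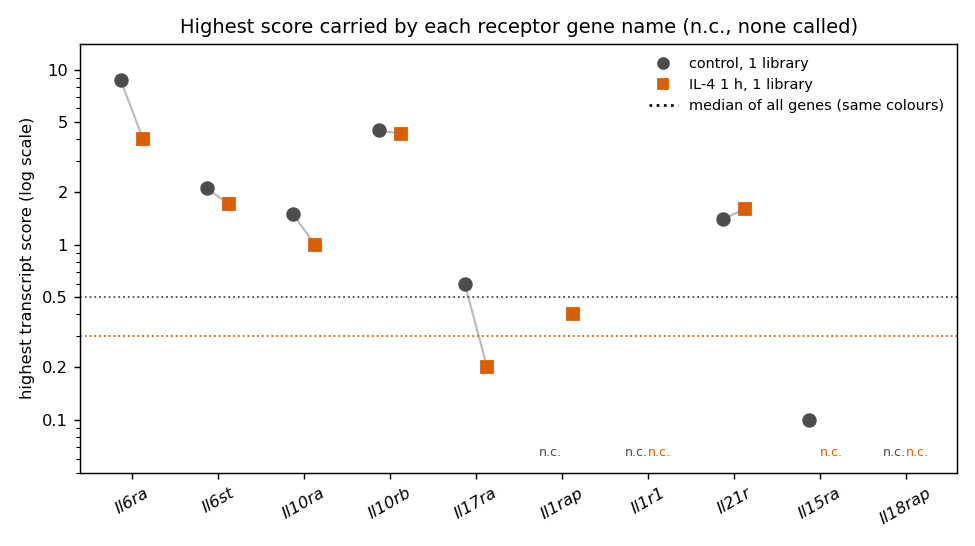
Highest score carried by each receptor gene name, on a log axis, with 1 circle for the control library and 1 square for the IL-4 1 hr library; dotted lines mark the median of all genes, 0.5 in control and 0.3 after IL-4. *Il6ra* (8.7 and 4.0) and *Il10rb* (4.5 and 4.3) stand highest, *Il17ra* crosses from above to below the median line of its library, and n.c. marks the libraries in which *Il1rap*, *Il15ra*, *Il1r1* or *Il18rap* had no called transcript.

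Gene-body levels per length gave a different picture from the highest score. On that scale 3 of the 6 genes, *Il10ra*, *Il17ra* and *Il21r*, were at least 2-fold lower after IL-4 and none was at least 2-fold higher, beside 16.7% lower and 16.6% higher among all 8183 genes. For each of these 3 the whole rounding range lay past 2-fold, which was so for 8.03% of all genes in the lower direction and 7.67% in the higher. This measure was added after the data were seen. It gives a place without a called transcript no signal, an uncertainty outside the rounding range. After IL-4, 6 of 15 *Il10ra* and 8 of 14 *Il21r* control transcripts had no counterpart, beside 36.7% of control transcripts over all gene bodies. The planned highest body score called *Il17ra* alone lower and none higher, beside 8.41% and 8.27% of genes. The median centred log2 ratio of the 6 genes was -1.01, where the quartiles of all genes were -0.68 and 0.66. The other three, *Il6ra*, *Il6st* and *Il10rb*, had centred log2 ratios of -0.54, 0.57 and -0.04.

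In the control library the order of level per length was *Il10ra* (0.289), *Il10rb* (0.217), *Il6ra* (0.0711), *Il21r* (0.0378), *Il6st* (0.0282), *Il17ra* (0.0164), *Il15ra* (0.0007) and, with none, *Il1rap*, *Il1r1* and *Il18rap*. In the IL-4 library the order was *Il10rb* (0.231), *Il10ra* (0.113), *Il6ra* (0.0534), *Il6st* (0.046), *Il21r* (0.0115), *Il17ra* (0.0051) and *Il1rap* (0.0003). The median gene with body transcripts had a level of 0.0079 in control and 0.0087 after IL-4. *Il10ra* therefore stood at percentile 96.6 of genes in control and 91.2 after IL-4, while *Il10rb* stood at 95.8 and 95.3. *Il21r* stood at percentile 82.3 in control and 56.5 after IL-4, and *Il17ra* at 67.7 and 37.5. Without replicates the spread between neighbours in these orders is unknown.

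**Figure D2:**
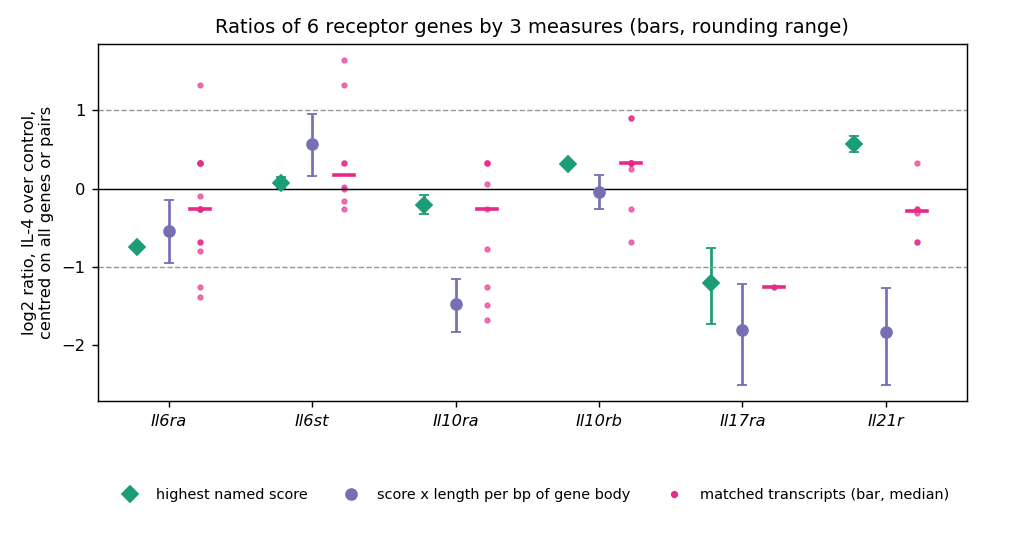
Centred log2 ratio of IL-4 over control for the 6 receptor genes measured in both libraries, by highest named score (diamonds), by score times length per bp of gene body (circles), each with its rounding range as the bar, and by single matched transcripts (dots, median as a line). *Il10ra*, *Il17ra* and *Il21r* lie below the dashed 2-fold line by the body measure, at -1.48, -1.81 and -1.84, and *Il21r* has opposite signs by the highest named score and by its own body.

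*Il6ra* (ENSMUSG00000027947.11, chr3:89864059-89913196, minus strand, 49138 bp) carried the highest score of any member. Its value was 8.7 in control and 4.0 after IL-4, or after centring a log2 ratio of -0.74 (rounding allows -0.77 to -0.72). Both values came from the same place, an A-rich low-complexity stretch in intron 1, where the control transcript covered 145 bp (89907688 to 89907832). The next highest pair, on a B1 SINE element in the same intron, scored 2.3 and 0.7. Both leading sites were thus annotated as repeat or low-complexity sequence. Simple repeat and low-complexity transcripts made up 11.5% of the control library and 7.66% of the IL-4 library. With these left out, the value of *Il6ra* came from the SINE pair and its centred log2 ratio was -1.39, past 2-fold. Over the gene body, 25 transcripts were called in control and 23 after IL-4, and their scores summed to 17.2 and 9.0. At 16 matched places the score was lower after IL-4 in 10, equal in 5 and higher in 1, with a median centred log2 ratio of -0.26 and a range from -1.39 to 1.32. The place with the higher score was the first exon, at 0.1 and 0.2. Covered length was 7858 bp in the control library and 8774 bp in the IL-4 library, a ratio of 1.12. The body transcripts toward the 3′ end, 7 in control and 5 after IL-4, were named for the neighbouring gene *She* and entered only the body measures.

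*Il6st* (ENSMUSG00000021756.12, chr13:112464070-112510086, plus strand, 46017 bp) had close scores in both libraries but was covered over more of its length after IL-4. Its highest score was 2.1 in control and 1.7 after IL-4 at the annotated transcript end, or after centring a log2 ratio of 0.07 (rounding allows -0.003 to 0.15). The transcript in the CpG island at the start of intron 1 scored 0.7 and 0.5. Own-strand body transcripts numbered 10 and 20, and they covered 2333 bp of the control library's gene body and 7628 bp of the IL-4 library's. This was a ratio of 3.27, above the third quartile of all genes. Transcripts at the lowest printed score of 0.1 made up much of the difference, with 1 in control and 10 after IL-4, and without them the counts were 9 and 10 and the ratio of covered length was 1.74. Of the 20 transcripts after IL-4, 12 had no overlapping counterpart in control, against 2 of 10 in the other direction, where over all gene bodies 47.6% and 36.7% lacked one. Across 8 matched places the median centred log2 ratio was 0.17, with 4 scores lower, 2 equal and 2 higher. An upstream antisense transcript at the promoter scored 0.2 in both libraries.

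*Il10ra* (ENSMUSG00000032089.16, chr9:45253837-45269149, minus strand, 15313 bp), the IL-10-binding chain, had the densest gene-body signal of the members in control. By its highest named score it was 1.5 in control and 1.0 after IL-4, or after centring a log2 ratio of -0.21 (rounding allows -0.33 to -0.09). These 2 scores came from different places, intron 1 near the start in control and a TG-repeat region of intron 5 after IL-4. Compared at the same places, the intron 1 transcript scored 1.5 and 0.7 and the intron 5 transcript 1.2 and 1.0. Over the body there were 15 transcripts in control and 7 after IL-4, with summed scores of 8.4 and 2.8. Among the 6 genes with body transcripts in both libraries, 4 (*Il6ra*, *Il10ra*, *Il17ra* and *Il21r*) had fewer of them after IL-4 than in control, as did 25.8% of the 8183 genes. The exon 2 transcript, at 0.9 in control, had no counterpart after IL-4, and a 1378 bp transcript over the 3′ UTR in exon 7 scored 0.6 in control against 0.2 after IL-4 in the transcript that overlapped it. Of 9 matched pairs, 6 had a lower score after IL-4, 3 an equal score and none a higher one. Some of these pairs share a transcript, since 1 long IL-4 transcript could overlap 2 short control transcripts. Called transcripts covered 45.9% of the gene in control and 35.2% after IL-4. A shorter covered length after IL-4 was seen in 3 of these 6 genes, *Il10ra*, *Il17ra* and *Il21r*, and in 28.9% of the 8183. The level per length had a centred log2 ratio of -1.48 (rounding allows -1.83 to -1.15), at percentile 8.98 of all genes. Some transcripts that carried the name lay outside the gene, in *BC049352* on the opposite strand and in the downstream intergenic sequence, and they did not set its value.

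*Il10rb* (ENSMUSG00000022969.13, chr16:91406164-91425834, plus strand, 19671 bp), the partner chain, had nearly the same values in both libraries. Its highest score was 4.5 in control and 4.3 after IL-4, or after centring a log2 ratio of 0.31 (rounding allows 0.28 to 0.35), from a T-rich low-complexity region of intron 1. Only the control transcript there was annotated as low complexity, so leaving out such transcripts removed the 4.5 but not the 4.3 and moved the centred ratio to 1.84. Upstream of it in intron 1, the promoter-near transcript scored 1.5 and 1.0. Body transcripts numbered 13 and 17, with summed scores of 8.6 and 8.2, and the level per length had a centred log2 ratio of -0.04 (rounding allows -0.26 to 0.17). Among 11 matched pairs the score was equal in 6, lower after IL-4 in 3 and higher in 2, with a median centred log2 ratio of 0.32. The IL-4 library also held 2 antisense transcripts near the promoter, each at 0.2, where the control library held none. An overlapping gene on the same strand, *Gm21970*, covered 10 of the 13 control and 12 of the 17 IL-4 body transcripts, so the signal of the 2 genes cannot be separated there. Within the IL-10 receptor, the chains thus had body-level ratios of -1.48 and -0.04 whose rounding ranges did not overlap; without replicates the difference has no test.

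*Il10rb* lies beside 3 further class II cytokine receptor genes on chromosome 16. *Ifnar1* and *Ifnar2* encode chains of the type I interferon receptor and *Ifngr2* a chain of the type II receptor. The highest named scores of these genes were 3.2 and 1.7 for *Ifnar2* (centred log2 ratio -0.53), 1.8 and 1.1 for *Ifnar1* (-0.33) and 19.9 and 13.1 for *Ifngr2* (-0.22). None of the 4 genes was past 2-fold, and by named score *Il10rb* had the only positive centred ratio of the 4 (without centring it was -0.07). This did not hold by level per length, where *Ifngr2* alone was positive. On that scale the centred log2 ratios were -0.04 for *Il10rb*, -0.30 for *Ifnar2*, -0.94 for *Ifnar1* and 0.58 for *Ifngr2*. For *Ifngr2* the highest named transcript was not an own-strand body transcript, and within its own body the scores were 2.2 and 2.0 and the centred log2 ratio was 0.23.

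*Il17ra* (ENSMUSG00000002897.5, chr6:120463247-120487559, plus strand, 24313 bp), the common chain of the IL-17 receptors, was the member called lower by its highest score. That score was 0.6 in control and 0.2 after IL-4, or after centring a log2 ratio of -1.21 where rounding allows a span of -1.74 to -0.76, which includes changes smaller than 2-fold. It came from the transcript over the CpG island at the gene start, whose length was 493 bp before and 508 bp with IL-4. A second pair, on a B1 SINE in intron 1, scored 0.3 and 0.1. The remaining control transcripts, 1 in intron 1 and 1 in exon 13, both scored 0.1 and had no counterpart after IL-4. By level per length the centred log2 ratio was -1.81 (rounding allows -2.51 to -1.22), at percentile 5.33 of all genes. All of these scores lay between 0.1, the lowest printed value, and 0.6. In each library 2 of the transcripts named *Il17ra* lay in the neighbouring gene *Kdm5a*, with scores of 0.5 and 0.3 (control) and 0.2 and 0.1 (IL-4). The one at 0.2 tied with the gene-start transcript for the IL-4 value. With own-strand body transcripts alone the highest scores were still 0.6 and 0.2, and the centred log2 ratio was -1.22.

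**Figure D3:**
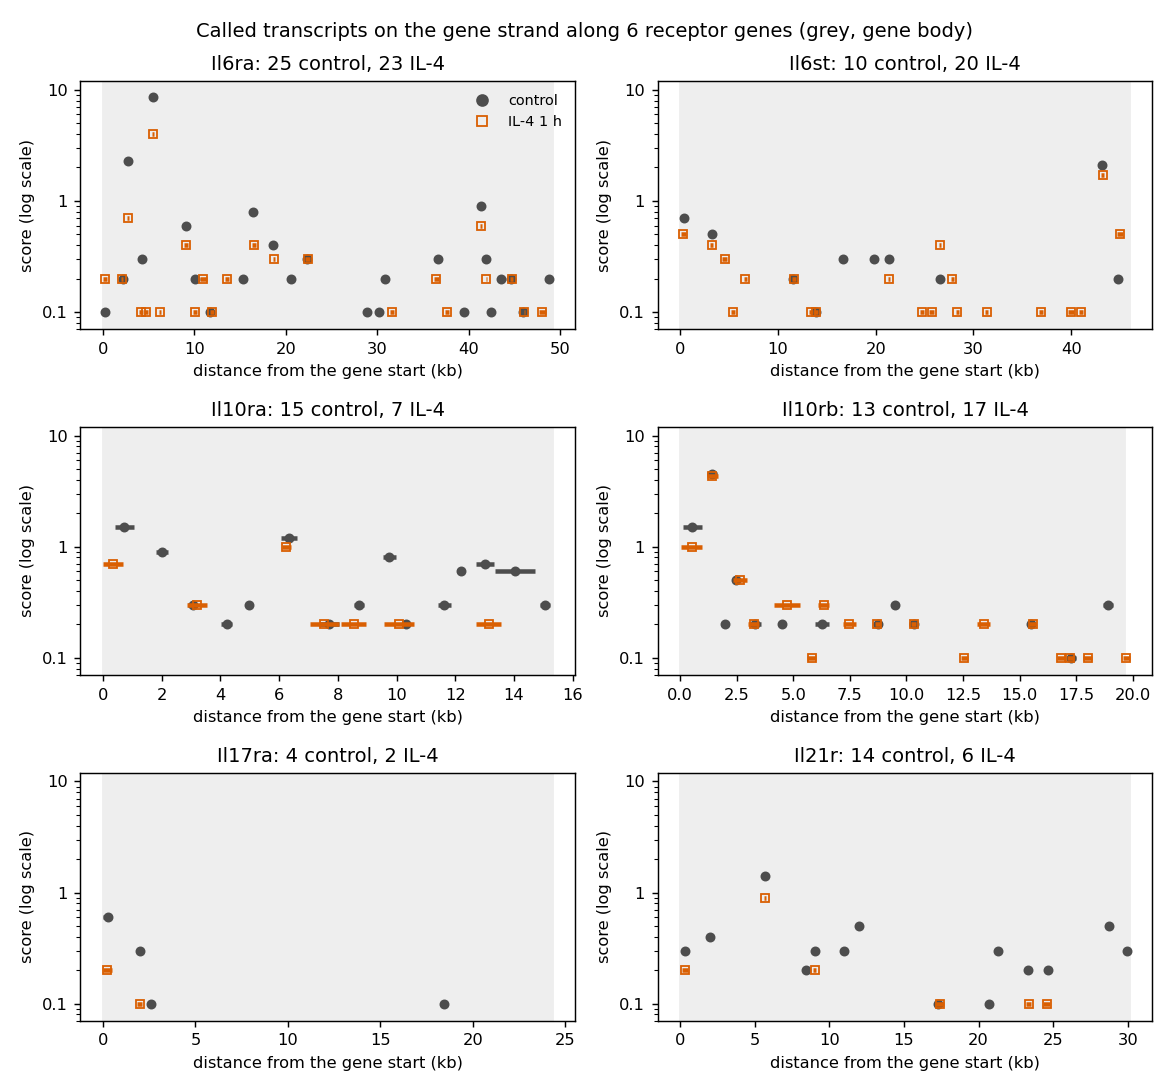
Called transcripts on the gene strand along 6 receptor genes, with distance from the gene start in kb on the x axis and score on a log y axis; filled circles are control, open squares are IL-4 1 hr, horizontal bars show transcript length and grey marks the gene body. Transcripts along *Il10ra* (15 and 7), *Il17ra* (4 and 2) and *Il21r* (14 and 6) are fewer after IL-4, while *Il6st* (10 and 20) gains transcripts mainly at score 0.1.

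*Il21r* (ENSMUSG00000030745.9, chr7:125603429-125633570, plus strand, 30142 bp), the IL-21-binding chain, gave opposite directions by name and by gene body. By name its value was 1.4 in control and 1.6 after IL-4, or after centring a log2 ratio of 0.57 (rounding allows 0.47 to 0.67). The 1.6 belonged to a transcript of 1613 bp that starts at position 125580153, just beyond the 3′ end of *Il4ra* and far upstream of *Il21r*. Inside the *Il21r* body the highest score was 1.4 and 0.9, or after centring a log2 ratio of -0.27 (rounding allows -0.41 to -0.14), from a simple TTTTTG repeat in intron 1. Without simple repeats the centred log2 ratio was 1.51 by name and -1 within the body. The 5′ UTR transcript scored 0.3 and 0.2. Body transcripts numbered 14 in control and 6 after IL-4, with summed scores of 5.1 and 1.6 and covered lengths of 2950 and 1998 bp. All 6 IL-4 transcripts had a counterpart in control, where over all gene bodies 47.6% of IL-4 transcripts lacked one. Of the 14 control transcripts, 8 had none after IL-4, beside 36.7% over all gene bodies. Limited to scores of at least 0.2, the counts of body transcripts were 12 and 3. Among the 6 matched pairs the score was lower in 5 and equal in 1, with a median centred log2 ratio of -0.29. That median stood at percentile 31.7 of genes with at least 3 matched pairs, inside their quartiles of -0.42 and 0.32. The level per length had a centred log2 ratio of -1.84 (rounding allows -2.51 to -1.28), at percentile 5.16 of all genes.

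*Il21r* lies 23955 bp downstream of *Il4ra*, the IL-4-binding receptor chain, on the same strand. The *Il4ra* body held 13 transcripts in control and 28 after IL-4, with highest scores of 0.9 and 2.2 and summed scores of 4.4 and 15.8. Their full lengths, with overlaps between transcripts counted more than once, summed to 3334 and 21538 bp. Between the genes, plus-strand transcripts numbered 2 in control and 3 after IL-4, with highest scores of 0.7 and 1.6. Body-level sums thus differed in opposite directions in the 2 neighbouring genes, higher after IL-4 in *Il4ra* and lower in *Il21r*.

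**Figure D4:**
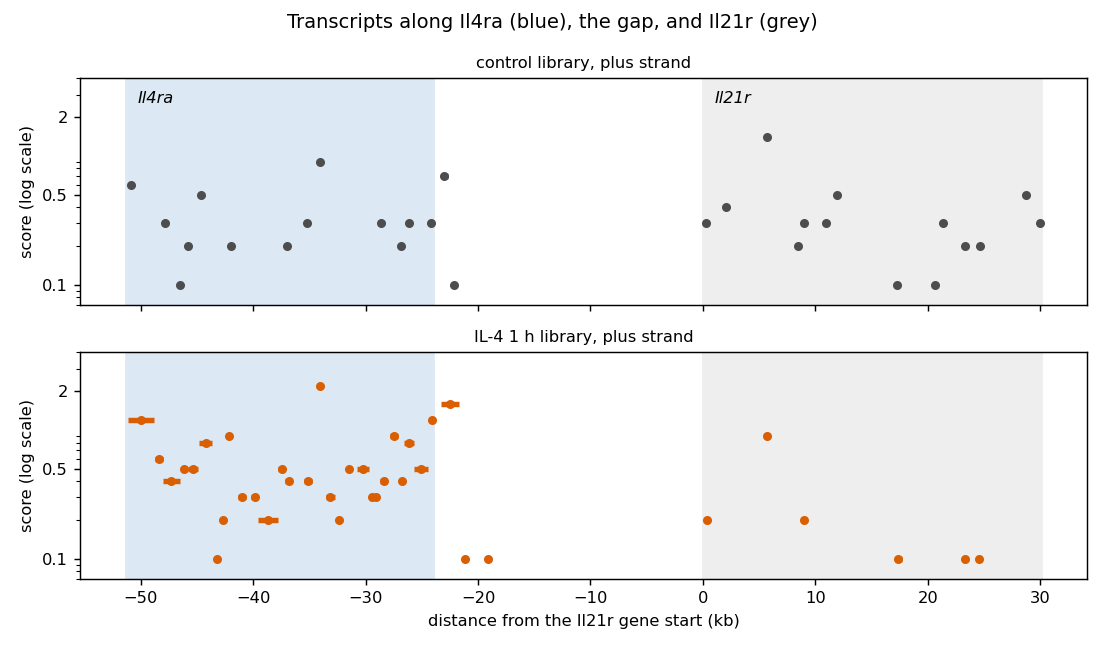
Plus-strand transcripts of the control library (upper) and the IL-4 library (lower) along *Il4ra* (blue), the gap and *Il21r* (grey), with distance from the *Il21r* start in kb on the x axis, score on a log y axis and bars for transcript length. After IL-4 the *Il4ra* body holds 28 transcripts against 13, the highest score in the gap lies just after the *Il4ra* end, at 1.6 against 0.7, and the *Il21r* body holds 6 transcripts against 14.

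The remaining 4 genes had at most 1 called transcript. *Il1rap* (ENSMUSG00000022514.14, chr16:26581704-26730117, plus strand, 148414 bp), the accessory chain that IL-1 and IL-33 receptors share, had none in control and 1 after IL-4. That transcript had a score of 0.4 and covered 118 bp at the start of the gene, from 26581724 to 26581841, next to the CG-rich sequence printed above. *Il15ra* (ENSMUSG00000023206.16, chr2:11705290-11734317, plus strand) had 1 promoter transcript of 216 bp at the lowest printed score of 0.1 in control and none after IL-4. No fold can be given for either gene, since the files list no value for a transcript that was not called, and the lowest score they list is 0.1. *Il1r1* (ENSMUSG00000026072.12, chr1:40225080-40317257), the signalling receptor for IL-1, and *Il18rap* (ENSMUSG00000026068.11, chr1:40515362-40551705), the accessory chain for IL-18, had no transcript on either strand. The nearest called transcript lay 215288 bp (control) and 216754 bp (IL-4) from *Il1r1*, and 505570 and 507036 bp from *Il18rap*. These 2 genes lie in a cluster of 6 IL-1 receptor family genes on chromosome 1, and none of the 6 had an own-strand body transcript in either library. *Il1r2*, the decoy receptor of that cluster, carried named scores of at most 0.7 (control) and 0.2 (IL-4), from transcripts outside its body.

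The other receptor chains and the partners of these receptors were counted for comparison. Among 33 other interleukin receptor chains and related class I chains, 19 had no named transcript in either library and 11 had one in both. None of the 11 was at least 2-fold higher and 2 were at least 2-fold lower, beside 8.06% and 8.62% of all genes, and the median centred log2 ratio was -0.04, against 0 for all genes by construction. The pair that was lower comprised *Il1r2* (centred log2 ratio -1.43) and *Il17rb*, named here after its values were seen, at 0.3 and 0.1. Only for *Il1r2* was the whole rounding range at least 2-fold lower (-1.94 to -1), with its upper end at 2-fold and not past it. Neither gene had a transcript in its own body. Of 18 ligands and antagonists of the members, 13 had no named transcript, 5 had one in both libraries, none was higher and 1 was lower (the same shares of all genes apply), with a median of -0.30. The lower one was *Il15*, also named after its values were seen, the ligand of *Il15ra*, at 0.9 in control and 0.3 after IL-4 (centred log2 ratio -1.21, rounding allows -1.55 to -0.90). This call rests on the highest score, which gave -1.22 inside the *Il15* body. Body transcripts numbered 9 in control and 13 after IL-4, and by level per length the centred log2 ratio was -0.37, not past 2-fold.

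Of 25 signalling partners, which include JAK kinases, STAT factors and the MyD88 and IL-17 adaptors, 23 had a value in both libraries, with a median centred log2 ratio of 0.38. That is the centred ratio of a gene with equal scores in both libraries. It was also the third quartile of all genes (quartiles -0.51 and 0.38). At least 2-fold changes were counted for 4 in the higher direction and 4 in the lower, beside 8.06% and 8.62% of all genes. With the whole rounding range past 2-fold there were 3 in each direction, beside 3.67% and 3.85% of all genes. The higher genes were *Socs1* (centred log2 ratio 3.44), *Zc3h12a* (0.4 and 0.9, 1.55), which encodes the RNase Regnase-1, and *Traf5* (2.1 and 3.5, 1.12), an adaptor. For *Zc3h12a* the highest score inside its own body was 0.4 and 0.6, or after centring a log2 ratio of 0.95. The lower genes were *Irak2* (6.2 and 1.3, -1.88), a kinase of the IL-1 receptor and Toll-like receptor pathway, *Nfkbiz* (1.5 and 0.4, -1.53), a nuclear IκB protein induced by IL-1 and IL-17, and *Jak1* (7.5 and 2.8, -1.04), the kinase bound by gp130 and by *Il10ra*. By level per length *Jak1* was not past 2-fold, at -0.95. On that scale *Irak2* was at -2.11, *Nfkbiz* at -3.97, *Socs1* at 5.96, *Zc3h12a* at 2.65 and *Traf5* at 1.81. Own-strand body transcripts of *Nfkbiz* numbered 7 in control and 1 after IL-4. Those of *Socs1* numbered 1 and 3, of *Zc3h12a* 4 and 7 and of *Traf5* 3 and 12. The *Nfkbiz* and *Socs1* ratios thus each rested on 1 transcript in 1 of the libraries. The IL-1 receptor chains themselves were barely called in these libraries, whose depth is unknown. *Irak2* had 23 own-strand body transcripts in control and 9 after IL-4. Fewer after IL-4 were seen in 25.8% of the 8183 genes with such transcripts in both libraries. A link between the receptor chains and *Irak2* was not tested.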

How the data were processed

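GRO-seq was performed in 2 mouse BMDM libraries, 1 control and 1 with 20 ng/ml IL-4 for 1 hr, each from duplicate run-on reactions pooled before capture and about 100 ng of nascent RNA. According to the submitters' processing notes the tools were BWA (0.7.10), SAMtools (0.1.19) and HOMER (4.2) with the mm10 build. The study aligned reads, removed blacklisted regions, called strand-specific transcripts in each library with the GRO-seq mode of HOMER and annotated each to the nearest promoter. The authors deposited a score per transcript, printed to 1 decimal, and its scaling is not given in the sources used here. Read counts and depth were not used here.

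From these files, gene values, centred log2 ratios and rounding ranges were computed in Python (3.11.15) with pandas (2.3.3) and numpy (2.4.6). A gene was counted as changed at 2-fold. Gene bodies came from GENCODE M21 (GRCm38). Body measures used transcripts overlapping a gene by at least 1 bp on its strand, and transcripts of both libraries overlapping there by at least 1 bp were matched and centred on all pairs. Promoter windows were RefSeq's 300 bases (GRCm38.p6). The gene-value step was checked on simulated data.

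Samples were grouped by the treatment label. All 10 members are named, and from each other list the counts and at most 3 genes in each direction whose whole rounding range lay past 2-fold, with exceptions stated. The members and lists were chosen with earlier results of these data known. Alternatives covered the gene value, repeats, short or low transcripts, centring, missing values, rounding and the threshold. The 3 body-based gene values (level per length, summed body scores, and the body without repeats) were added after the data were seen. No test was possible with 1 library per condition.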

Additional observations from a re-analysis of the deposited data

How the results depend on the processing

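No paired analysis was possible because each condition had 1 library. *Il17ra*, the only member with a called main value, was at least 2-fold lower under all 12 alternatives that give it a new value (-1.81 to -1.22). Several of these reuse its scores of 0.6 and 0.2, so they are not independent. Across the alternatives *Il6ra* (-1.39 to 1.00), *Il10rb* (-2.91 to 1.84) and *Il21r* (-1.84 to 1.51) were each called in both directions. *Il10ra* was called lower under 5 and higher under none, and *Il6st* higher under 1 and lower under none. With summed scores of named transcripts, 2 receptor genes were lower (median -0.35), against 1208 genes higher and 1219 lower overall. With score times length of named transcripts, 2 were lower (median -0.21), against 1529 and 1500. With the transcript nearest the start, 2 were higher and 3 lower (median -0.84), with 2461 genes lower in all. *Il6st* was then at 1.32, *Il6ra* at 1.00 and *Il10rb* at -2.91. The *Il10rb* value set a sense control transcript (1.5) against an antisense IL-4 transcript (0.2), where the matched sense pair scored 1.5 and 1.0. The *Il6st* value set an antisense control transcript (0.2) against a sense IL-4 transcript (0.5), where the matched sense pair scored 0.7 and 0.5. The median was -0.25 with the highest own-strand body score and -0.18 without transcripts under 100 bp. Without simple repeats and low complexity, 2 were higher and 2 lower, *Il6ra* being at -1.39, *Il21r* at 1.51 (its control body repeat left out, the IL-4 transcript near *Il4ra* kept) and *Il10rb* at 1.84 (the same place annotated as low complexity in the control library only). Without centring, 2 were lower (median -0.44), with 2161 genes lower overall. With missing genes set to 0.1, 1 was higher (median 0.14), with 1451 genes higher and 1357 lower. With the whole rounding range past 2-fold, 0 were lower, with 326 and 342 genes overall; at 1.5-fold 2 were lower, with 1793 and 2164. Of the alternatives added after the data were seen, level per length gave 3 lower (median -1.01; 1356 and 1369 genes), summed body scores 3 lower (median -0.94), and the body without repeats 1 higher and 3 lower (median -0.63). The main counts were 0 higher and 1 lower, with 716 and 765 genes overall. The causes of these movements were not tested. Without scores below 0.2, the ratio of covered length was 0.884 for *Il6ra*, 1.74 for *Il6st* and 0.279 for *Il21r*. The 1-decimal score limits low genes most: 0.2 could be any value from 0.15 to 0.25.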
